A study of Mus musculus with 6 samples.

Results

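Interferon-stimulated genes were followed in RNA-sequencing libraries of mouse bone marrow-derived macrophages, primary macrophages grown from bone marrow. The set holds 32 genes, taken by symbol from the 55401 Ensembl genes of the count table, and all 32 were found and had enough counts to be tested. The cells came from the C57BL/6 strain, and every library was transfected with an siRNA and then stretched for 4 h. The 3 siNC libraries received a negative-control siRNA and the 3 siPiezo1 libraries an siRNA against Piezo1, a mechanically gated cation channel. These groups allow 1 comparison, the knockdown against its control in stretched cells; cells without siRNA or without stretch were not analysed here. The labels give neither sex nor age of the animals, nor whether replicates were separate cultures, and the p-values therefore rest on a spread between samples that may be technical.

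Type I interferons are cytokines that cells release when they sense viral or displaced nucleic acid. Type I interferon binds the receptor chains IFNAR1 and IFNAR2, the kinases JAK1 and TYK2 then phosphorylate STAT proteins, and STAT2 acts with IRF9 in the factor ISGF3. ISGF3 binds the interferon-stimulated response element in the promoters of many antiviral genes, whose products sense nucleic acid, degrade or hold back viral RNA, and feed back on the pathway. Macrophages keep a low level of these transcripts without infection.

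Total estimated counts ran from 61086684 to 75052745 per library. Piezo1 stood at 180, 285 and 189 CPM (counts per 1000000 counts of the library, with TMM scaling) in siNC 1, 2 and 3 and at 111, 109 and 113 CPM in siPiezo1 1, 2 and 3, so each siPiezo1 library lay below each siNC library. Its log2 fold change of -0.97 did not pass over all genes with 6 libraries (edgeR adjusted p = 0.744), and it passed without siNC 2 (-0.73, edgeR adjusted p = 0.00245). The macrophage markers Lyz2, Csf1r, Adgre1, Cd68, Itgam, Mertk and Fcgr1 were present in every library. The library siNC 2 stood apart from the others. The 10 neutrophil markers were all highest there, against 28.8% of all genes. Their sum was 4024 CPM there, against 743 to 893 CPM in the other libraries. One of them, Ly6g, was near 0 throughout, with 0.37 CPM in siNC 2 and 0.30 CPM at most elsewhere. Of the 7 macrophage markers 6 were lowest there, against 27.6% of all genes. The exception was Itgam, with 664 CPM there and 261 to 1393 CPM elsewhere. The sum of the 7 was 26690 CPM there, of which Lyz2 made up 20610 CPM, and 33540 to 36310 CPM in the other libraries. Markers of T cells were at 0 throughout, as were Siglech and Klk1 of the plasmacytoid dendritic cells, a main source of type I interferon. The other plasmacytoid markers, Ccr9, Cox6a2 and Pacsin1, brought that list to between 1.48 and 2.98 CPM. The lists of B cells, NK cells and endothelium stayed under 1 CPM in sum, and that of fibroblasts ran from 6.37 to 13.3 CPM.

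None of the 32 interferon-stimulated genes differed between siPiezo1 and siNC in edgeR's quasi-likelihood test at a threshold of 0.05 on the p adjusted by Benjamini-Hochberg, against 0.00627% of the 15959 genes tested. At an unadjusted p under 0.05 there were also 0, against 4.93% of all genes. DESeq2 called 0 (0.551% of all genes), with 0 at its unadjusted p (6.32%), and limma-voom called 0 (0.00627%). The groups overlapped for every member, whereas they did not overlap for 11.9% of all genes. The median log2 fold change of the members was 0.09, against -0.01 over all genes, with 23 of 32 above 0 (48% of all genes). Single values ran from -0.43 for Oasl1 to 0.28 for Rsad2, with standard errors (SE) of 0.08 to 0.48.

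The feature that the members shared was a low level in siNC 2. Of the 32 genes, 31 had their lowest value of the 6 libraries there, against 27.6% of all genes, and 0 had their highest there, against 28.8%. The members together held 5926, 3475 and 6042 CPM in siNC 1, 2 and 3, and 5433, 5716 and 5137 CPM in siPiezo1 1, 2 and 3. Relative to the mean of siNC 1 and 3, siNC 2 had a median log2 ratio of -0.72 over the members and 0.003 over all genes. The ratio ran from -1.94 for Mx1 to 0.08 for Usp18. It was below -1, or more than 2-fold lower, for 7 members, Mx1, Ifit2, Ifi44, Ifit3, Ifi205, Oasl1 and Ifi204, and for 3.76% of all genes; 0 members lay more than 2-fold higher there (6.52% of all genes). The part of the high neutrophil markers and low macrophage markers of this library in these values was not tested. In bulk RNA, fewer cells of a type and less RNA per cell cannot be told apart. As 1 library cannot be tested against the others as a condition, these are descriptions of that library.

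**Figure D1:**
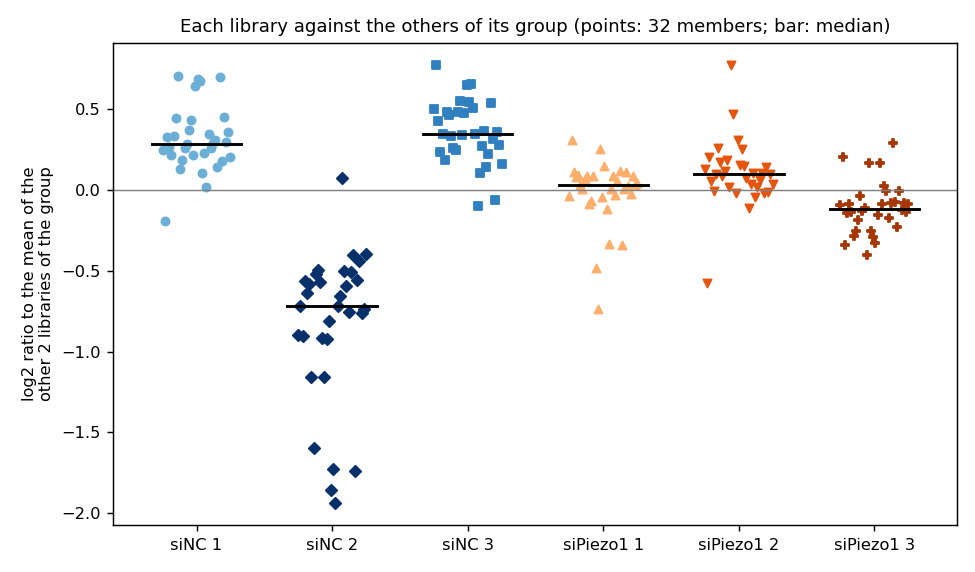
For each library on the x axis, the y axis gives the log2 ratio of a gene's CPM to the mean CPM of the other 2 libraries of the same group, with a pseudocount of 0.5 CPM added to both; points are the 32 members and bars their median. The median was -0.72 in siNC 2, 0.29 and 0.35 in siNC 1 and 3, and 0.03, 0.10 and -0.12 in siPiezo1 1, 2 and 3.

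With siNC 2 left out, the comparison of 2 siNC with 3 siPiezo1 libraries turned to the other side of 0. As siNC 2 was the lowest library for 31 of the 32 members, leaving it out lowers their fold changes by construction. The counts below describe the remaining libraries and are not separate evidence on the knockdown. The median log2 fold change was then -0.14, against 0.005 over all genes, and 27 of 32 members were below 0 (49.2% of all genes). The exceptions were Usp18 at 0.11, Rsad2 at 0.10, Isg20 at 0.08, Bst2 at 0.04 and Mx2 at 0.03. None passed edgeR's adjusted threshold (1.12% of all genes), and the smallest adjusted p was 0.109, for Mx1. At an unadjusted p under 0.05 there were 9 members (14.4% of all genes), of which 9 were lower (6.66%) and 0 higher (7.69%). These 9 were Irf7, Ifi204, Oas1a, Oas1g, Oas2, Mx1, Isg15, Ifi44 and Xaf1. Both remaining siNC libraries lay above all siPiezo1 libraries for 18 of the 32 (16.4% of all genes), and below all of them for 0 (16.9%). Of the 7 macrophage markers, Adgre1 and Fcgr1 were also lower in this fit (log2 fold changes -0.31 and -0.46, edgeR adjusted p = 0.0385 and 0.028). The other 5 were not called, with log2 fold changes of -0.59 for Mertk, -0.11 for Csf1r, -0.11 for Cd68, 0.09 for Lyz2 and 0.47 for Itgam. The part of these markers in the members' values was not tested. The median SE was 0.08 in this fit and 0.20 with all 6 libraries.

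**Figure D2:**
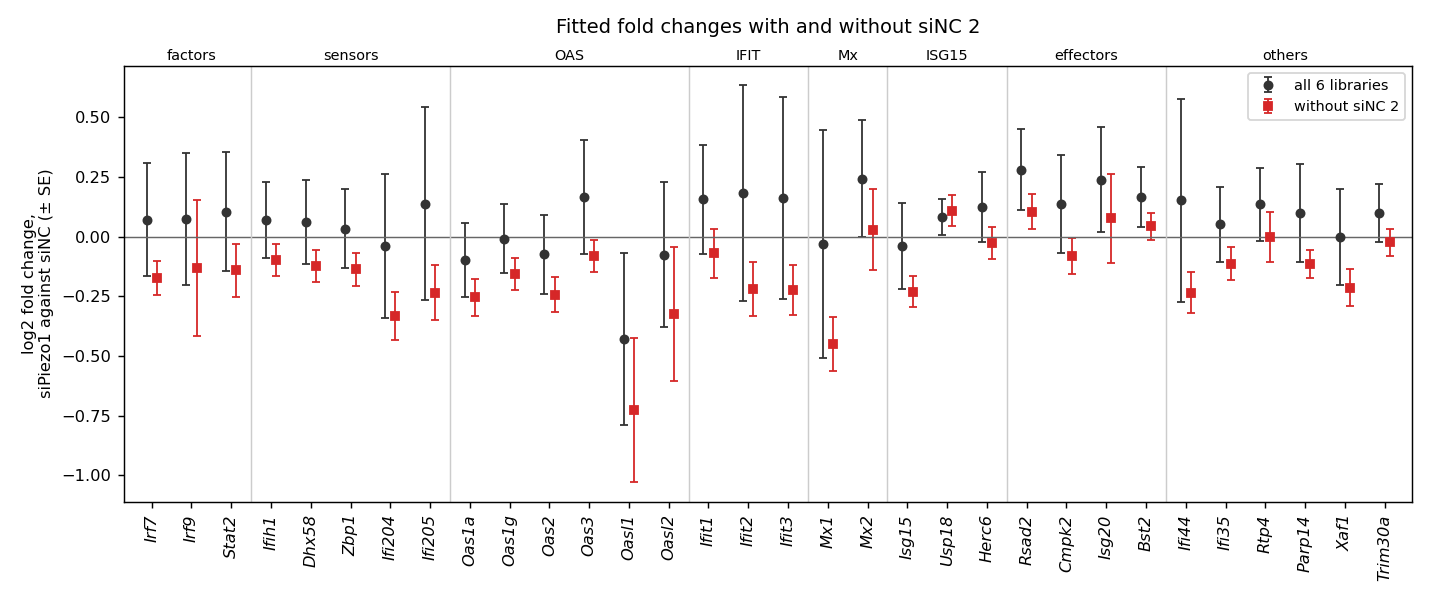
The y axis gives the log2 fold change of siPiezo1 against siNC with its SE, from edgeR, for each member on the x axis, grouped by role; black circles use all 6 libraries and red squares leave out siNC 2. The values run from -0.43 to 0.28 with all 6 libraries, and 27 of 32 lie below 0 without siNC 2.

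Promoter sequences were looked up in RefSeq (build GRCm38.p6), where 23 of the 32 members have at least 1 window of 250 bases before to 50 after a start site. The response element was searched on both strands as the letters GAAA, 2 bases of any kind and again GAAA, with overlapping matches allowed. It was found in a window of 12 of the 23 members (52.2%), namely Stat2, Ifih1, Ifi205, Oas1a, Oas1g, Oas3, Ifit1, Ifit3, Isg15, Rsad2, Bst2 and Trim30a, and of 3.99% of the 27025 genes in the table. The letters TTCNNNGAA of the interferon-gamma activated site were found for 5 of 23 members (21.7%) and 9.55% of all genes. A match is a run of letters and not evidence of binding. Sequences are given here for Isg15 and Ifit3 over the whole 250 bases before the start site, and for short stretches of other members that differ widely in level and in their siNC 2 ratio. They lie at chr4:156200819-156201068 (Isg15, minus strand), chr19:34583279-34583528 (Ifit3, plus strand), chr19:34640773-34640825 (Ifit1, plus strand), chr1:174031868-174031901 (Ifi205, minus strand), chr5:120907526-120907557 (Oas1a, minus strand), chr5:120887614-120887643 (Oas1g, minus strand) and chr8:71537575-71537614 (Bst2, minus strand). Each is written on the gene's strand, and capitals mark the element, which on the opposite strand reads TTTC, 2 bases of any kind and again TTTC.
Isg15: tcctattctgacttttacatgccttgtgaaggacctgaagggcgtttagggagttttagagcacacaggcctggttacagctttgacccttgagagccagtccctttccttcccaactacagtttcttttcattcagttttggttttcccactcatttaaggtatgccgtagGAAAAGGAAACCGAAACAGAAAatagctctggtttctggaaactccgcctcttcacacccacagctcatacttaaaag
Ifit3: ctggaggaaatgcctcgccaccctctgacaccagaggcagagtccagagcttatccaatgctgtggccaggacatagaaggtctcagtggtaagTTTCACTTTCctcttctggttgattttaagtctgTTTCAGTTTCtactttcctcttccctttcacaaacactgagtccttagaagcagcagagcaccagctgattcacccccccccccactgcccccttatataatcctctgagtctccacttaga
Ifit1: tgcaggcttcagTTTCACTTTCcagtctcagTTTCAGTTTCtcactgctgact
Ifi205: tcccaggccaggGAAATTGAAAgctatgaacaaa
Oas1a: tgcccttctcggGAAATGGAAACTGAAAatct
Oas1g: tgcccttctcggGAAATGGAAACTGAAAat
Bst2: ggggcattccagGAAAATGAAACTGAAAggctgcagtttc

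In Isg15, 3 overlapping matches formed 1 run that began 78 bases before the start site, and in each of Bst2, Oas1a and Oas1g 2 matches overlapped. Ifit1 and Ifit3 each held 2 separate matches on the opposite strand. The 30 bases shown for Oas1g stand unchanged within those of Oas1a. Members with and without the letters overlapped in how low they were in siNC 2. The median log2 ratio of siNC 2 to siNC 1 and 3 was -0.63 for the 12 with the element (from -1.72 to -0.39), -0.76 for the 11 with a window that lacks these letters (-1.86 to -0.50) and -0.64 for the 9 without a window (-1.94 to 0.08). The 9 were Dhx58, Zbp1, Ifi204, Oas2, Mx1, Mx2, Usp18, Rtp4 and Parp14.

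The signalling genes of the set encode IRF9 and STAT2, which are parts of ISGF3, and IRF7, the factor that amplifies interferon-alpha genes. Irf7 stood at 261, 148 and 290 CPM in siNC 1, 2 and 3 and at 240, 259 and 234 CPM in siPiezo1 1, 2 and 3. siNC 2 lay well below the other libraries, which were close to each other. The log2 fold change of Irf7 was 0.07 ± 0.24 (SE), and -0.17 ± 0.07 (SE) without siNC 2. Stat2 had 0.10 ± 0.25 (SE) and 138 CPM in siNC 2, against 199 to 264 CPM in the other libraries. Irf9 also varied among the rest, from 51.6 CPM in siPiezo1 2 to 90.4 CPM in siNC 3, with 45.5 CPM in siNC 2.

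Among the nucleic acid sensors, Ifi204 encodes a DNA-binding protein of the family with HIN domains. It had siNC values of 260, 118 and 264 CPM and siPiezo1 values of 209, 234 and 182 CPM. siNC 1 and 3 were above all siPiezo1 libraries and siNC 2 was below them, so that the groups overlapped. Its log2 fold change was -0.04 ± 0.30 (SE), and -0.33 ± 0.10 (SE) without siNC 2. Counts of Ifi204 are uncertain, because 16.8% of the 100-base windows of its longest transcript also occur in transcripts of other genes, chiefly Ifi211. Its relative Ifi205 had 10.8 CPM in siNC 2 and 25.4 to 35.4 CPM elsewhere. Ifih1, which encodes the double-stranded RNA sensor MDA5, Dhx58, which encodes its relative LGP2, and Zbp1, a sensor of Z-form nucleic acid, behaved alike. Their log2 ratios of siNC 2 to siNC 1 and 3 were -0.56, -0.64 and -0.58, and their log2 fold changes with all 6 libraries were 0.07, 0.06 and 0.03.

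The OAS family makes oligoadenylates that activate RNase L, and it was the group with the most members below 0 with all 6 libraries, 5 of 6, with a median log2 fold change of -0.08. Oas1a had siNC values of 236, 173 and 259 CPM and siPiezo1 values of 217, 217 and 190 CPM. Oas2 had siNC values of 178, 120 and 177 CPM and siPiezo1 values of 146, 164 and 142 CPM. In both genes siNC 1 and 3 were the highest libraries and siNC 2 the lowest. Without siNC 2 their log2 fold changes were -0.25 ± 0.08 and -0.24 ± 0.07 (SE), with edgeR adjusted p of 0.169 and 0.167.

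Oas1g, the neighbour of Oas1a, had siNC values of 103, 74.4 and 106 CPM and siPiezo1 values of 90.2, 99.3 and 92.5 CPM. The reads of these genes may have been split between them, since 40.9% of the 100-base windows of Oas1a occur in Oas1g and 38.2% of those of Oas1g in Oas1a. Oas3, the long family member, had siNC values of 504, 279 and 547 CPM and siPiezo1 values of 518, 502 and 472 CPM. It was the exception of the family, with a log2 fold change of 0.17 ± 0.24 (SE) with all libraries.

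Oasl1 and Oasl2 encode OAS-like proteins, of which OASL1 lacks synthetase activity and represses translation of Irf7 mRNA. They are given because they also differed within siPiezo1, which was seen in their values. Oasl1 had siNC values of 78.5, 36.3 and 84.5 CPM and siPiezo1 values of 38.9, 68.5 and 40.5 CPM. Here siPiezo1 1 and 3 were close to siNC 2, and its log2 fold change, -0.43 ± 0.36 (SE), was the lowest of the set. Oasl2 had siNC values of 446, 231 and 429 CPM and siPiezo1 values of 242, 429 and 377 CPM, with siPiezo1 1 near siNC 2. In most other members siPiezo1 3 was the lowest of the siPiezo1 libraries, 23 of 32 in all. The lowest was siPiezo1 1 for 6 members and siPiezo1 2 for 3. The share over all genes was not computed for this count, so it cannot show whether the members differ from other genes.

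**Figure D3:**
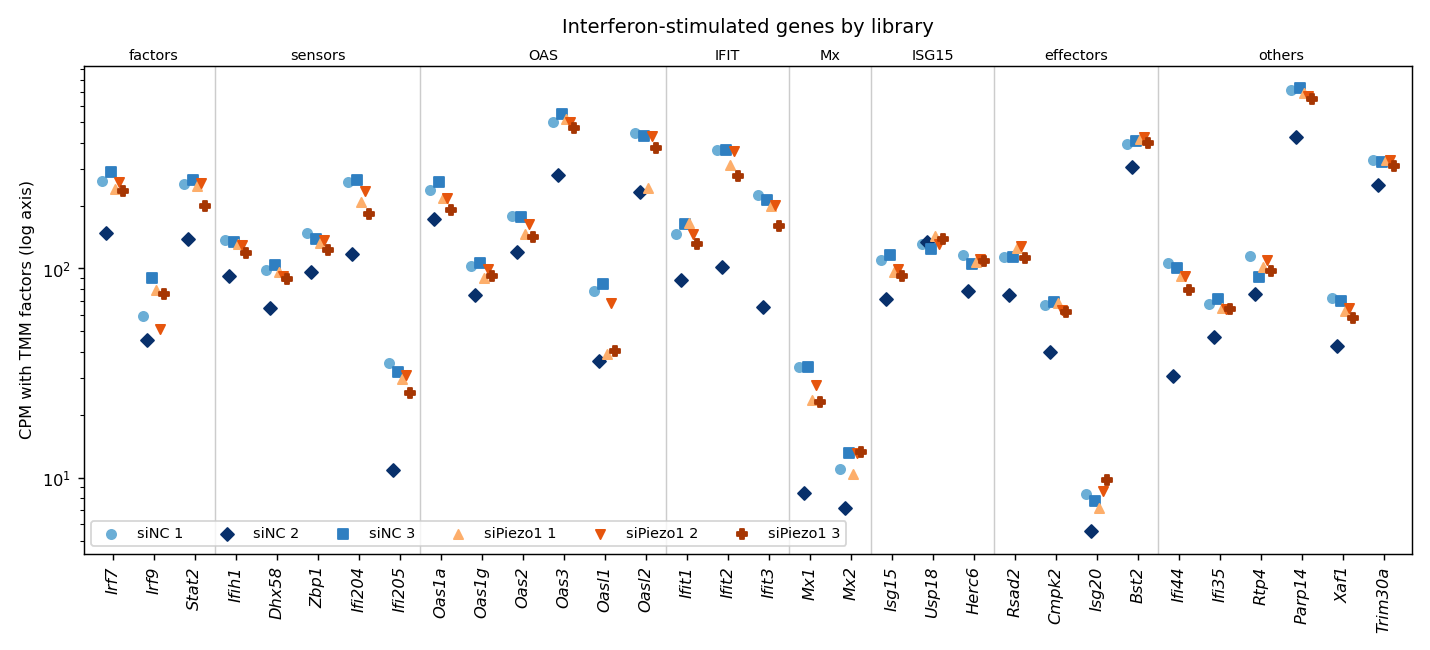
The y axis, a log axis, gives CPM with TMM factors for each member on the x axis, grouped by role; blue symbols are the 3 siNC and orange symbols the 3 siPiezo1 libraries. siNC 2 (dark diamonds) is the lowest library for 31 of the 32 genes, all but Usp18.

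The IFIT proteins bind viral RNA and block its translation, and their genes lie in 1 cluster. This family had the lowest median in siNC 2 of the roles with at least 3 members, a log2 ratio of -1.72. Ifit2 had siNC values of 369, 102 and 370 CPM and siPiezo1 values of 311, 365 and 276 CPM. Ifit3 had siNC values of 224, 65.5 and 212 CPM and siPiezo1 values of 200, 201 and 160 CPM. siNC 1 and 3 were close to each other in both genes and were the highest libraries. Their log2 fold changes were 0.18 ± 0.45 and 0.16 ± 0.42 (SE), and -0.22 ± 0.11 and -0.22 ± 0.11 (SE) without siNC 2.

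Ifit3 shares 31.7% of its 100-base windows with the copy Ifit3b, so its counts are uncertain. Ifit1 was less low in siNC 2, with 87.8 CPM there and 131 to 165 CPM elsewhere, and its highest library was siPiezo1 1. The promoter stretches of Ifit1 and Ifit3 given above hold the same number of element matches, and their siNC 2 ratios were -0.81 and -1.72. A relation between matches and ratios was not tested.

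The Mx proteins are dynamin-like GTPases that trap viral particles, and Mx1 is a disrupted gene in many laboratory strains. Mx1 had siNC values of 33.9, 8.45 and 33.6 CPM and siPiezo1 values of 23.4, 27.9 and 23.0 CPM. siNC 1 and 3 lay above, and siNC 2 below, every siPiezo1 library. The log2 fold change was -0.03 ± 0.48 (SE) with all libraries, the largest SE of the set, and -0.45 ± 0.11 (SE, unadjusted p = 0.00389, adjusted p = 0.109 by edgeR) without siNC 2. Mx2 was scarce, with 7.14 CPM in siNC 2 and 10.4 to 13.3 CPM elsewhere.

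ISG15 is a ubiquitin-like protein that is joined to other proteins, HERC6 is its main ligase in the mouse, and USP18 removes it and also blocks the interferon receptor. Isg15 had siNC values of 110, 71.4 and 116 CPM and siPiezo1 values of 96.7, 99.7 and 92.4 CPM. siNC 1 and 3 were the highest and siNC 2 the lowest of the libraries. Its log2 fold change was -0.04 ± 0.18 (SE), and -0.23 ± 0.06 (SE, unadjusted p = 0.00677, adjusted p = 0.139 by edgeR) without siNC 2. Usp18 is given as the 1 member that did not have its lowest value in siNC 2. It had siNC values of 131, 134 and 124 CPM and siPiezo1 values of 143, 130 and 139 CPM, so that siNC 2 lay in the middle of the range. Usp18 had the smallest SE of the set, with a log2 fold change of 0.08 ± 0.08 (SE). Herc6 had 78.1 CPM in siNC 2 and 105 to 116 CPM elsewhere, and 20.9% of its windows are shared with the overlapping gene Gm45193.

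Bst2 encodes tetherin, which holds budding virus at the cell surface, and per kilobase of exon it was the most abundant member, with a mean of 433 CPM per kb. It had siNC values of 394, 304 and 408 CPM and siPiezo1 values of 416, 426 and 399 CPM. The siNC 2 ratio of Bst2, -0.40, was among the mildest, and the other 5 libraries lay close together. Its log2 fold change was 0.17 ± 0.12 (SE). Next in mean level per length came Isg15 (129 CPM per kb), Oas1a (114) and Ifit3 (101), and the other members were at 76.1 CPM per kb or less. Exon lengths came from another annotation than the count table, so this order is approximate.

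Rsad2 encodes viperin, which makes a chain-terminating nucleotide, and its neighbour Cmpk2 encodes a mitochondrial nucleotide kinase. Rsad2 had the highest log2 fold change of the set, 0.28 ± 0.17 (SE, unadjusted p = 0.144 by edgeR), with 74.8 CPM in siNC 2, 113 in both siNC 1 and siNC 3 and 112 to 128 in siPiezo1. Cmpk2 had 40.1 CPM in siNC 2 and 62.0 to 69.1 CPM elsewhere. Isg20, an RNA exonuclease gene, was scarce, with 9.79 CPM in siPiezo1 3 at most and 5.54 CPM (419 counts, or about 105 fragments) in siNC 2.

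Of the remaining members, Ifi44 had the lowest siNC 2 ratio, -1.74. It had siNC values of 107, 30.6 and 100 CPM and siPiezo1 values of 92.4, 92.3 and 78.8 CPM, with a log2 fold change of 0.15 ± 0.42 (SE), and -0.24 ± 0.09 (SE) without siNC 2. Xaf1, which encodes an antagonist of the apoptosis inhibitor XIAP, had siNC values of 72.6, 42.6 and 70.1 CPM and siPiezo1 values of 62.5, 64.5 and 57.8 CPM. In both genes siNC 1 and 3 exceeded all siPiezo1 libraries. Parp14, a mono-ADP-ribosyltransferase gene, had siNC values of 712, 426 and 730 CPM and siPiezo1 values of 694, 664 and 642 CPM, which is the same order of groups with a narrower gap.

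Trim30a, a TRIM-family gene of which a product restrains NF-kB signalling, varied least in siNC 2 after Usp18. It had siNC values of 331, 250 and 325 CPM and siPiezo1 values of 329, 329 and 310 CPM. Ifi35 and Rtp4 had siNC 2 ratios of -0.55 and -0.44. Their counts may include those of overlapping genes, Gm11626 on the opposite strand for Ifi35 (16.8% of exon bases) and Gm45338 on the same strand for Rtp4 (13.9%). Rtp4 differed between siNC 1 (115 CPM) and siNC 3 (91.4 CPM), and its log2 fold change without siNC 2 was -0.001.

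Transcripts of the ligands were nearly absent. Of 21 interferon genes, 18 were listed at 0 in every library, Ifnb1 among them, and the largest value was 9 counts (0.126 CPM, Ifnz in siPiezo1 1). No ligand gene had enough counts to be tested. Receptor and kinase genes all had enough counts to be tested. Of 11 genes of the receptors and JAK-STAT signalling, edgeR called 0 in either direction, 0 were under an unadjusted p of 0.05, and DESeq2 called 0. Ifnar2, a chain of the type I receptor, had siNC values of 126, 113 and 117 CPM and siPiezo1 values of 128, 129 and 126 CPM. Ifngr1, of the interferon-gamma receptor, had siNC values of 102, 69.8 and 138 CPM and siPiezo1 values of 79.5, 73.8 and 81.8 CPM, a log2 fold change of -0.40 that was not called. Il10rb, which the type III receptor shares, had 91.8 CPM in siPiezo1 3 and 174 to 213 CPM elsewhere.

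Across the other 6 lists of the pathway with tested genes, edgeR called 0 genes in either direction from all 6 libraries, and DESeq2 called 0. Under an unadjusted p of 0.05 there were 1 of 5 other interferon regulatory factors, 0 of 13 RNA sensing genes, 0 of 15 DNA sensing genes, 0 of 8 negative regulators, 5 of 54 other interferon-stimulated genes and 1 of 15 genes that prefer interferon-gamma, against 4.93% of all genes. Their median log2 fold changes were 0.17, 0.06, 0.05, -0.002, 0.10 and 0.15. Irf8, a factor of the macrophage lineage, had siNC values of 101, 65.4 and 89.4 CPM and siPiezo1 values of 90.3, 158 and 154 CPM, so that siPiezo1 1 lay with siNC. Irf2, a repressor of interferon targets, had 44.1 to 57.0 CPM in siNC and 57.6 to 65.2 CPM in siPiezo1, a separation of the groups that 11.9% of all genes had. Irf1 was lowest in siNC 2, at 49.8 CPM against 72.5 to 87.6 CPM.

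Genes with the smallest p in the sensing lists were far from the threshold. They were Traf3 (log2 fold change 0.60), Tbk1 (0.19) and Tlr3 (-0.39) for RNA, and Aim2 (0.22), Cgas (0.15) and Mndal (0.18) for DNA. The Traf3 value rested on siPiezo1 2, at 88.7 CPM against 34.7 to 43.0 CPM in the other libraries. Among other interferon-stimulated genes, Shisa5 had siNC values of 351, 300 and 336 CPM and siPiezo1 values of 420, 409 and 386 CPM, and Trim30d and Slfn9 had log2 fold changes of 0.35 and 0.30. The other genes of that list under an unadjusted p of 0.05, named after their values were seen, were lower in siPiezo1: Lgals9 had a log2 fold change of -0.19, and Ifitm1 had -2.18, with 53.9 CPM in siNC 2 and 3.87 to 7.47 CPM in the other libraries. The groups did not overlap for Shisa5, Trim30d, Slfn9 and Lgals9, which were picked by their p, and for 11.9% of all genes. In the interferon-gamma list, Tap1, a peptide transporter of antigen presentation, had 0.36, Gbp3 0.23 and the chemokine Cxcl10 -0.57, none of them called. Cxcl10 had 23.4 CPM in siNC 2 and 9.67 to 13.6 CPM elsewhere, and its log2 fold change without siNC 2 was -0.21.

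In siNC 2 most of these lists stood low as well. Of the 54 other interferon-stimulated genes 44 had their lowest value there, with a median log2 ratio to siNC 1 and 3 of -0.66. The counts were 11 of 15 for DNA sensing (-0.92), 12 of 15 for the interferon-gamma list (-0.50), 9 of 13 for RNA sensing (-0.38), 4 of 5 for other interferon regulatory factors (-0.54), 6 of 11 for receptors and JAK-STAT (-0.20) and 4 of 8 for negative regulators. The share over all genes was 27.6%. Of the 138 genes in these lists and that of the ligands, 7 stand in more than 1 list. The suppressor of cytokine signalling genes Socs3 and Socs1 went the other way and were highest in siNC 2. Other tested genes of these lists highest there were Ifitm1 (log2 ratio 2.92), Ifnlr1 (1.81), Cxcl10 (0.87) and Jak2 (0.64). Tmem173 (0.41), Gbp7 (0.40), Ticam1 (0.19) and Stat3 (0.12) were highest there as well. Socs3, a feedback inhibitor of JAK kinases, had siNC values of 35.0, 272 and 38.6 CPM and siPiezo1 values of 56.4, 58.2 and 73.6 CPM. Socs1 had siNC values of 1.79, 8.11 and 1.15 CPM and siPiezo1 values of 2.15, 2.58 and 1.81 CPM. Socs3 had a log2 fold change of -0.88 with all 6 libraries, not called, and 0.77 without siNC 2, where it passed the threshold (adjusted p = 0.0358 by edgeR). It was the only gene of the pathway lists past the threshold in that fit. The third regulator by p, Irf2bp1, had 0.12.

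**Figure D4:**
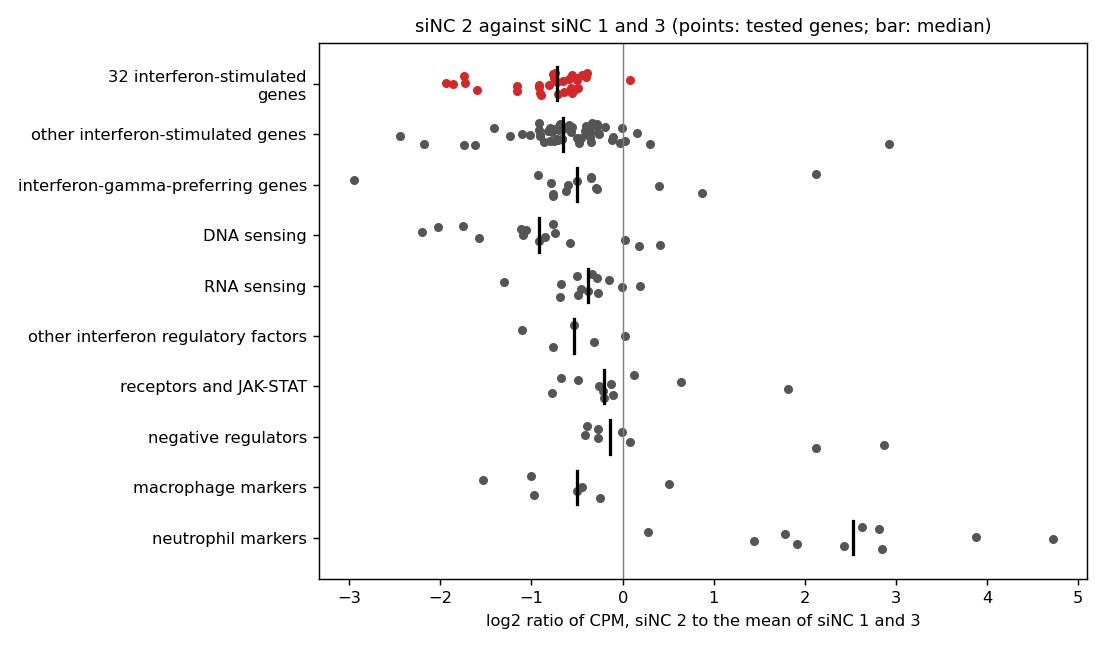
The x axis gives the log2 ratio of CPM in siNC 2 to the mean of siNC 1 and 3, with a pseudocount of 0.5 CPM, for each tested gene (points) of the lists on the y axis, with bars at the medians. The members have a median of -0.72, the macrophage markers -0.50 and the neutrophil markers 2.53.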

How the data were processed

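Poly(A) RNA of 6 libraries, 3 siNC and 3 siPiezo1, was sequenced as paired-end reads with dUTP strand marking, per the labels' protocols. The deposited values are estimated counts per gene; the authors' tools were cutadapt 1.9, HISAT2 2.0.4 and StringTie 1.3.4d, with DESeq2 and edgeR also named and the build GRCm39, per the submitters' processing notes. Neither the annotation release nor the strand setting is given in the sources used here, so overlapping genes may share counts. Low values pile up near multiples of 4, so 1 fragment was taken to be worth about 4 counts, which was not measured further. The design assumed counts, the values were already whole, and the test was kept.

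Samples were grouped by title, and 0 columns were left unmapped. GENCODE M21 gave symbols for 55141 of 55401 identifiers, exon lengths and shared 100-base windows. In R 4.3.3, edgeR 4.0.16 (filterByExpr, TMM, robust quasi-likelihood test, group as the only term) was run on 15959 genes, with Benjamini-Hochberg adjustment over all of them and a threshold of 0.05. SE is the size of the fold change over the square root of F. The test was tested on simulated data. CPM ratios used a pseudocount of 0.5.

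The members and lists were chosen with earlier results of these data known. Values in every library were given by rule for the 15 members that either had an unadjusted p under 0.05 with all libraries or without siNC 2, or were among the 10 most abundant per kb; for pathway lists, the rule took genes past the threshold and up to 3 with the smallest p. The alternatives tried were other scalings (size factors of DESeq2, totals alone), other filters (at least 1 count in all, or 50 counts in 3 libraries), DESeq2 1.42.0 as the test, voom of limma 3.58.1 with and without library weights, a replicate block, counts divided by 4, and each library left out.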

Additional observations from a re-analysis of the deposited data

How the results depend on the processing

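No alternative called any of the 32 members: the count past the threshold was 0 with all 6 libraries and under each of the alternatives, and the smallest adjusted p of a member was 0.109 (edgeR, without siNC 2). The number of members lowest in siNC 2, 31 with TMM, was 31 with DESeq2's size factors and 31 with library totals, alternatives chosen after seeing the data. The direction of the members rested on siNC 2. Their median log2 fold change was 0.09 with all libraries and -0.09 in limma-voom with library weights, and it ranged from -0.14 without siNC 2 to 0.21 without siNC 3. Over all genes, the calls went from 1 to 178 without siNC 2, 88 with DESeq2, 5 without siPiezo1 3, 4 with library weights, and 0 with library totals, the replicate block, or without siNC 1, siNC 3 or siPiezo1 1; the cause was not tested. The smallest value of any member in any library was 419 counts.

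The labels do not say whether equal replicate numbers pair the samples. Deviations of same-numbered siNC and siPiezo1 libraries correlated across genes at 0.04, -0.08 and -0.16. Those of differently numbered libraries ran from -0.108 to 0.175, so these correlations cannot decide whether samples were paired. With the replicate block the members' median was 0.13, and the sign turned for Ifi204 (0.037), Oas1g (0.007), Mx1 (0.18) and Xaf1 (0.032), which also turned in limma-voom (0.048, 0.011, 0.27 and 0.044). Limma-voom with library weights turned the sign of Irf7 (-0.11), Irf9 (-0.096), Stat2 (-0.085), Ifih1 (-0.06), Dhx58 (-0.08), Zbp1 (-0.097), Ifi205 (-0.11), Oas3 (-0.02), Ifit1 (-0.02), Ifit2 (-0.10), Ifit3 (-0.11), Cmpk2 (-0.029), Ifi44 (-0.12), Ifi35 (-0.075), Parp14 (-0.066), Irf1 (-0.035), Socs3 (0.56) and Socs1 (0.43).

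With 1 library left out at a time, the signs of these genes turned within the ranges given. The log2 fold change ranged from -0.17 to 0.26 for Irf7, -0.13 to 0.38 for Irf9, -0.14 to 0.26 for Stat2, -0.099 to 0.16 for Ifih1, -0.12 to 0.19 for Dhx58, -0.14 to 0.15 for Zbp1, -0.33 to 0.14 for Ifi204 and -0.23 to 0.42 for Ifi205. It ranged from -0.25 to 0.023 for Oas1a, -0.16 to 0.084 for Oas1g, -0.24 to 0.018 for Oas2, -0.081 to 0.35 for Oas3, -0.32 to 0.13 for Oasl2, -0.071 to 0.34 for Ifit1, -0.22 to 0.43 for both Ifit2 and Ifit3, -0.45 to 0.23 for Mx1 and -0.23 to 0.086 for Isg15. The other ranges were -0.028 to 0.25 for Herc6, -0.08 to 0.27 for Cmpk2, -0.24 to 0.43 for Ifi44, -0.11 to 0.17 for Ifi35, -0.001 to 0.30 for Rtp4, -0.12 to 0.23 for Parp14, -0.21 to 0.13 for Xaf1, -0.024 to 0.17 for Trim30a, -0.089 to 0.28 for Irf1, -0.036 to 0.37 for Mndal, -1.31 to 0.77 for Socs3 and -1.19 to 0.56 for Socs1. Piezo1 was called by DESeq2 with all libraries and by edgeR without siNC 2 (Benjamini-Hochberg adjusted p = 0.000982 and 0.00245).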
